A study of Mus musculus with 33 samples.

Results

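The views from 2 baits of the *Tcra*–*Tcrd* locus, the δ D segment *Trdd2* and the TEA promoter (TEAp), were compared in DP thymocytes, with 3 libraries for each bait. They are 6 of the 33 libraries of the series, chosen by their titles. All 6 libraries came from thymus of C57BL/6 mice of genotype CBE+/+Rag1-/-, in which EACBE, the CTCF-binding element (CBE) downstream of the enhancer Eα, is intact. *Rag1*-/- mice do not recombine the locus, and their thymocytes were driven to the CD4+CD8+ double-positive (DP) stage by an anti-CD3 antibody injected at 3 weeks of age, with thymi taken 10 days later. The groups shared strain, tissue, genotype and treatment and differed by the bait primer. The study calls the replicates of its 3C-HTGTS profiles biological and those of TEAp independent experiments, and does not say so of Trdd2. The number of animals or cultures behind each library was not given in the sources used here. The p-values therefore measure the spread between these libraries, and may not measure that between animals. Contact data hold no marker genes, and the labelled cell type could not be checked.

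The *Tcra*–*Tcrd* locus holds 2 antigen receptor genes in the same stretch of DNA, and the D, J and C segments of *Tcrd* lie between the V genes and the Jα array of *Tcra*. At the DP stage *Tcra* is recombined between V and Jα genes, which deletes the *Tcrd* segments between them. TEAp is the promoter upstream of the Jα array, Eα is the enhancer downstream of the constant gene *Trac*, and INT1 and INT2 are CBEs between the V genes and the D segments. CBEs bind CTCF, at which the loop-extruding complex cohesin is held back.

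In 3C-HTGTS, cross-linked chromatin is cut with MboI at GATC and ligated, and junctions are amplified from a bait primer. A read of the bait joined to 2 other fragments records a three-way contact, and these 2 fragments are called a pair here. The Trdd2 primer lies on the + strand at chr14:54122098-54122117 (mm10), in an MboI fragment of 716 bases (chr14:54121509-54122224). The TEAp primer lies on the + strand at chr14:54153052-54153073, in a fragment of 492 bases (chr14:54152642-54153133), and the primers are 30954 bases apart. The bait fragment of Trdd2 ends at the D segment itself, since an MboI site begins 1 base before the segment and shares 3 bases with it. The 16 bases of *Trdd2* (chr14:54122226-54122241, + strand, capitals in the first line) are followed without a gap by the recombination signal heptamer cacagtg, and the second line has the MboI site in capitals over the same 76 bases (chr14:54122196-54122271, + strand).
Trdd2 segment: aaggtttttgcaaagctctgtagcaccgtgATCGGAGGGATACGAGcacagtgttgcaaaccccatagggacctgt
Trdd2 MboI site: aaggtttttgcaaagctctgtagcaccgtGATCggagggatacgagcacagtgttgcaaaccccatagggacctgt

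Single MboI fragments show the difference between the views, and 5 of them are given on the + strand of mm10 with the leading MboI site in capitals. Outside the bait bins, the first 2 are the fragments most often met from the Trdd2 bait upstream and downstream of it, the next 2 are the most frequent INT fragments from each bait, and the fifth is the most frequent proximal V fragment from the TEAp bait. They were chosen for their values, which are therefore a description. The first lies between *Trdd1* and *Trdd2* (chr14:54116997-54117094), the second between *Trdj1* and *Trdj2* (chr14:54127435-54127547), the next 2 in the INT bins (chr14:54064287-54064348 and chr14:54064732-54064890), and the fifth spans the 3′ end of *Trdv2-2* (chr14:53961545-53961644).
Between Trdd1 and Trdd2: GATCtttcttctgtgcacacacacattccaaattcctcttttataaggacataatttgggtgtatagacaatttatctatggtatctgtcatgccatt
Between Trdj1 and Trdj2: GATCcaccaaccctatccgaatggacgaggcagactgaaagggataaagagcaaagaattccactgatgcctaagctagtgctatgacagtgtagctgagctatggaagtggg
INTs, from TEAp: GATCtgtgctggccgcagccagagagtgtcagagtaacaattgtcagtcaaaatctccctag
INTs, from Trdd2: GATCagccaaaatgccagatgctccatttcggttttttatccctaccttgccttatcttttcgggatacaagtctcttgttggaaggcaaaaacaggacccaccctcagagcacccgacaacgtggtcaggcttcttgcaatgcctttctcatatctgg
Trdv2-2, 3′ end: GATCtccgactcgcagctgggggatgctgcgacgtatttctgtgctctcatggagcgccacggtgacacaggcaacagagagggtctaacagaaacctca

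From the Trdd2 bait the fragment between *Trdd1* and *Trdd2* took part in 39.1, 44.8 and 34.2 of 1000 pairs, and from the TEAp bait in 8.69, 7.08 and 5.04. The fragment between *Trdj1* and *Trdj2* took part in 45.4, 52.8 and 40.0 of 1000 pairs from the Trdd2 bait against 19.7, 18.3 and 14.7. Both fragments were thus met more often from the Trdd2 bait in every library. The INT fragment most frequent from TEAp showed the opposite order, with 23.2, 18.5 and 22.9 of 1000 pairs from Trdd2 and 32.6, 36.3 and 33.5 from TEAp. The other INT fragment overlapped between the baits, with 23.4, 25.6 and 23.3 of 1000 pairs from Trdd2 and 23.0, 30.8 and 28.5 from TEAp. The fragment at *Trdv2-2*, a Vδ gene, had 7.96, 7.23 and 9.25 of 1000 pairs from Trdd2 and 11.4, 12.5 and 9.83 from TEAp.

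Depth and copies differed between the baits. The mapped region, chr14:53740001-54300000, held 42677 to 52803 reads in the Trdd2 libraries and 52253 to 76656 in the TEAp libraries, and after pairs with a fragment in either 5 kb bait bin were left out, 36015 to 43448 and 47574 to 69989 pairs were compared. These reads came from 4250 to 4596 distinct pairs of MboI fragments in the Trdd2 libraries and 8694 to 14181 in the TEAp libraries, and the 100 most frequent pairs held 25.4% to 26.8% and 15.05% to 17.4% of the reads. The reads carry no molecular identifiers, so shares of regions, classes and distance bands were computed again with each distinct fragment pair counted once. The tests of bins and bin pairs, co-occurrence and correlations were treated likewise. Values of single fragments and shares of the bait bins count reads only. Read names placed the 3 Trdd2 libraries on 1 flow cell and the TEAp libraries on 3 flow cells, so sequencing run and bait cannot be told apart. Over 6105 bin pairs, Pearson's r between libraries was 0.964 to 0.971 within Trdd2, 0.956 to 0.967 within TEAp and 0.826 to 0.880 between the baits. Spearman's rho was 0.450 to 0.467, 0.544 to 0.587 and 0.455 to 0.482, so by rank the Trdd2 libraries were no more alike among themselves than with the TEAp libraries. These correlations are a description, because bin pairs share fragments.

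The bait bins, left out of the comparison below, were themselves seen unequally. Pairs with a fragment in the Trdd2 bait bin (chr14:54120001-54125000, with *Trdd2* and *Trdj1*) made up 14.5%, 16.2% and 14.1% of the region's pairs from Trdd2 and 6.22%, 7.35% and 7.20% from TEAp. For the TEAp bait bin (chr14:54150001-54155000) the shares were 1.82%, 1.85% and 1.82% from Trdd2 and 1.46%, 1.62% and 1.56% from TEAp. Each bait fragment and its direct neighbours held no read in their own libraries, a count of 0 for 3 fragments in each library. Seen from the other bait, the TEAp bait fragment held 0.401%, 0.413% and 0.431% of the region's pairs, and the Trdd2 bait fragment held 0.353%, 0.406% and 0.286%.

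The share of pairs with at least 1 fragment in each of 9 regions was compared first, to ask which parts of the locus each bait met. The region of 50 kb from the INTs to the Trdd2 bin held 30.6%, 31.7% and 29.9% of the pairs from Trdd2 and 17.5%, 15.5% and 16.1% from TEAp, or 1.88 times as many. Jδ to Cδ, the 25 kb between the baits, held 24.6%, 24.5% and 24.7% from Trdd2 and 18.7%, 19.5% and 18.2% from TEAp, or 1.31 times as many. These were the regions with a higher share from Trdd2, and no library of one bait overlapped those of the other.

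The proximal V region, the 255 kb from *Trav17* to the INTs, held 32.0% ± 1.45 (SD, n = 3) of the pairs from Trdd2 and 43.0% ± 1.26 from TEAp. The INT bins held 24.0% ± 0.560 and 30.4% ± 1.02, the proximal Jα region (*Traj61* to *Traj53*) 5.66% ± 0.462 and 7.60% ± 0.301, and the rest of the Jα array 15.3% ± 0.629 and 19.7% ± 1.06. *Trac* and Eα together held 4.38% ± 0.498 and 5.25% ± 0.372, and the downstream flank with *Dad1* and *Abhd4* held 7.02% ± 0.514 and 8.24% ± 0.468. In these 6 regions every Trdd2 library lay below every TEAp library. The V genes upstream of *Trav17* overlapped, at 4.71% ± 0.371 and 4.97% ± 0.204 (exact permutation test, two-sided p = 0.4).

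With 3 libraries against 3, the exact permutation test cannot give a p below 0.1. The 8 regions whose libraries did not overlap all had that exact p, and 0.112 after Benjamini-Hochberg adjustment over the 9 regions. All values are shares of the same total, so a higher share in one region goes with lower shares elsewhere.

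**Figure D1:**
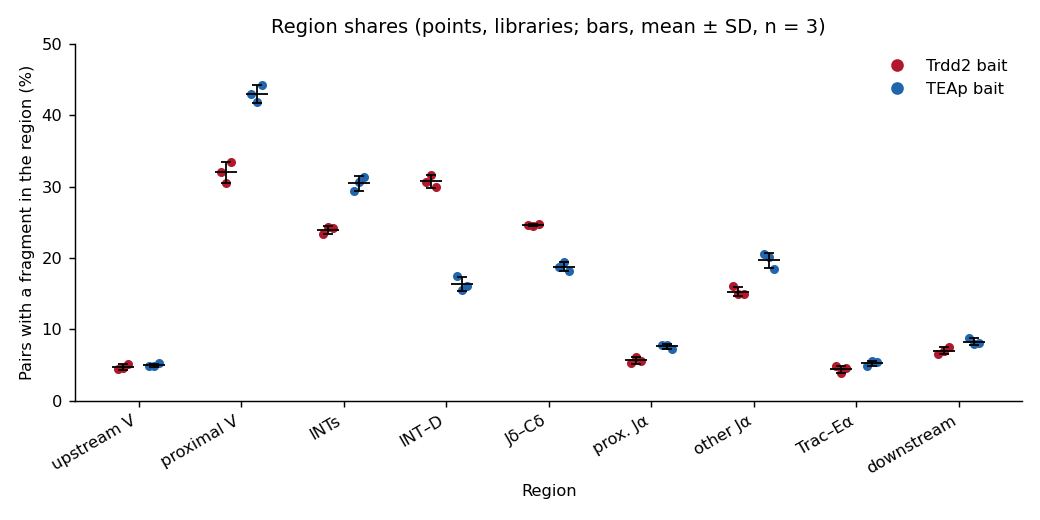
Share of pairs (%, linear axis) with at least 1 fragment in each of the 9 regions of the locus, in the order of the chromosome. Points are the 3 Trdd2 (red) and 3 TEAp (blue) libraries and bars are the mean ± SD, and Trdd2 lies above TEAp from the INTs to the D segments (30.7% against 16.4%) and from Jδ to Cδ (24.6% against 18.8%).

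Pairs were then classed by the interval between INT2 and TEAp, in which the *Tcrd* D, J and C segments and the Trdd2 bait lie and at whose end the TEAp bait lies. Both fragments fell inside this interval in 26.8%, 29.0% and 26.6% of the pairs from Trdd2 and in 13.3%, 13.0% and 12.2% from TEAp, or 2.14 times as many from Trdd2. With each distinct pair counted once the means were 16.6% ± 1.03 and 8.04% ± 0.543. The lower totals of distinct pairs in the Trdd2 libraries can raise such a share near the bait. Pairs of an inside fragment with one on the V side (INTs and V genes) held 17.1% ± 0.379 from Trdd2 and 14.5% ± 0.403 from TEAp. Pairs of an inside fragment with one on the Jα side (Jα genes, *Trac*, Eα and the downstream flank) held 6.76% ± 0.410 and 5.54% ± 0.129.

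Pairs that joined both sides of the interval moved the other way. They place V or INT sequence with Jα, *Trac*, Eα or the downstream flank at the bait. They were 9.83%, 9.79% and 10.7% of the pairs from Trdd2 and 16.7%, 15.9% and 16.1% from TEAp, or 1.60 times as many from TEAp. Pairs wholly on the V side held 26.8% ± 0.780 from Trdd2 and 36.6% ± 1.78 from TEAp, and pairs wholly on the Jα side held 11.8% ± 0.362 and 14.2% ± 0.929. None of these classes overlapped between the baits.

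Of 45 classes made of 2 regions, 29 did not overlap between the baits, 11 with the Trdd2 libraries above and 18 with them below. The largest class with Trdd2 above was INT to D with itself, at 13.3% ± 1.05 against 4.37% ± 0.327, or 3.04 times as many. INT to D with Jδ–Cδ held 4.08% ± 0.276 against 2.26% ± 0.161, and the INTs with INT to D held 3.98% ± 0.314 against 3.33% ± 0.268. Below TEAp were proximal V with the INTs (4.66% ± 0.523 against 8.51% ± 0.480) and proximal V with proximal Jα (0.706% ± 0.0192 against 1.47% ± 0.164), the segments used in primary *Tcra* rearrangement. Upstream V went more with the interval, at 0.635% ± 0.0964 against 0.384% ± 0.0244 with INT to D and 0.643% ± 0.0831 against 0.383% ± 0.00346 with Jδ–Cδ. Proximal V with *Trac*–Eα held 0.825% ± 0.0148 from Trdd2 and 1.23% ± 0.154 from TEAp. Over all 52 classes compared, 36 did not overlap, each with an exact p of 0.1 and an adjusted p of 0.144.

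The order changed when the pairs with an inside fragment were set aside. Among pairs wholly outside the interval, those on the V side held 55.2%, 54.4% and 55.2% from Trdd2 and 52.9%, 54.0% and 56.8% from TEAp, which overlapped. Pairs on the Jα side held 24.3% ± 1.03 from Trdd2 and 21.2% ± 1.55 from TEAp, now with Trdd2 above. Of these, the downstream flank with itself held 4.61% ± 0.0975 from Trdd2 and 3.11% ± 0.130 from TEAp, which did not overlap. The rest of the Jα array with itself overlapped (10.3% ± 1.25 and 9.08% ± 0.777). Pairs that joined the sides stayed below, at 20.8% ± 0.821 against 24.2% ± 0.868. By region, proximal V stayed below (48.6% ± 0.983 against 54.0% ± 1.70), while the INTs (33.9% ± 0.654 against 34.9% ± 0.961), both Jα regions, *Trac*–Eα and the downstream flank overlapped. This comparison was chosen after the data had been seen.

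**Figure D2:**
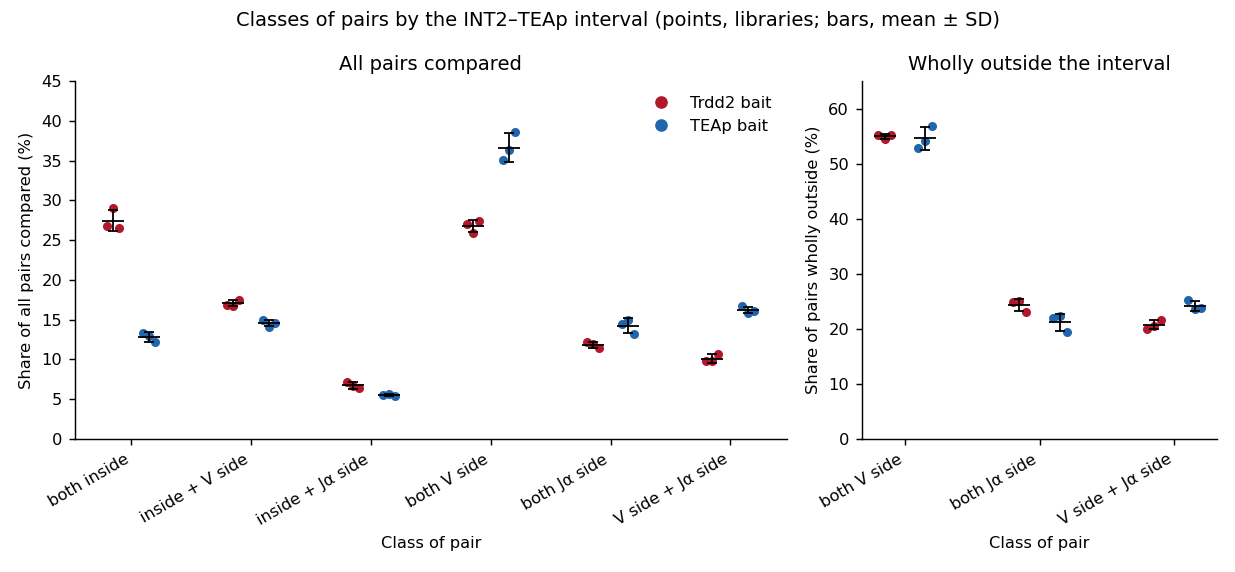
Share of pairs (%, linear axes) in each class by the interval between INT2 and TEAp, over all pairs compared (left) and over pairs wholly outside the interval (right). Points are the 3 Trdd2 (red) and 3 TEAp (blue) libraries and bars are the mean ± SD, and the pairs that join the V and Jα sides are fewer from Trdd2 in both panels (10.1% against 16.2%, and 20.8% against 24.2%).

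The profile along the locus was tested in 5 kb bins, on the number of pairs with a fragment in each bin. Of 108 bins tested, 48 (44.4%) were called at a Benjamini-Hochberg adjusted p under 0.05 in edgeR's quasi-likelihood test. From the Trdd2 bait 8 bins were higher (7.41% of those tested) and 40 lower (37.0%). The 3 Trdd2 libraries lay above all TEAp libraries in 11 bins (10.2%) and below them in 50 (46.3%). The median log2 fold change of all bins was −0.37, and the split depended on the scaling. With TMM normalization, under which the median was −0.03, 14 bins were higher and 4 lower, and among pairs wholly outside the interval, with a median of −0.09, 2 of 93 bins were higher and 4 lower. Of the 48 bins called, 47 kept the sign of their fold change with TMM and 12 their call, and outside the interval, where 39 of them were tested, 37 kept the sign and 4 the call.

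**Figure D3:**
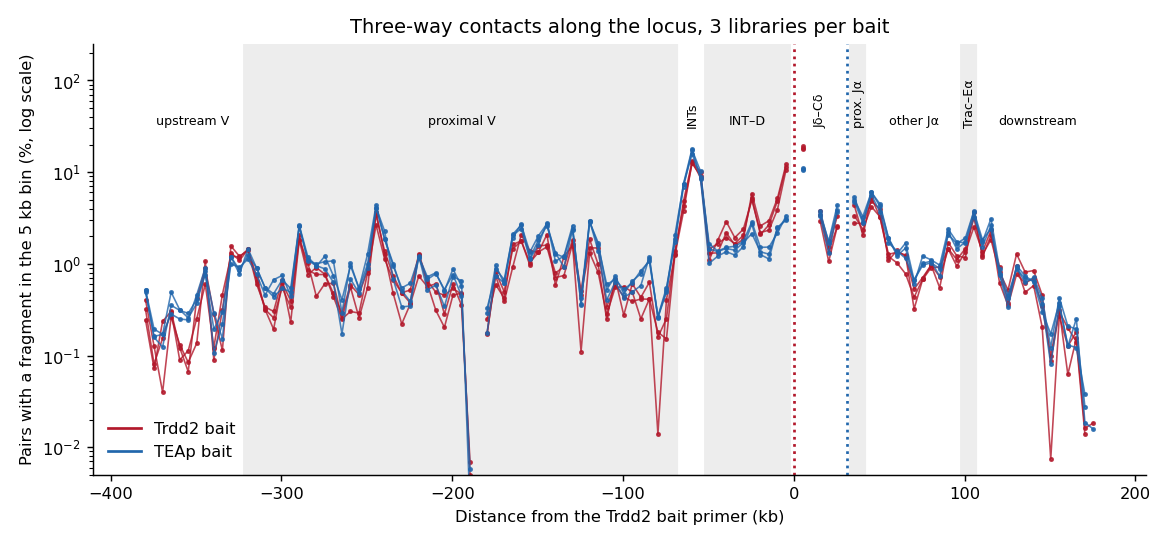
Share of pairs (%, log axis) with a fragment in each 5 kb bin against the distance of the bin from the Trdd2 bait primer (kb), one line for each of the 3 Trdd2 (red) and 3 TEAp (blue) libraries. Dotted lines mark the bait primers, bait bins and bins at 0 are not drawn, and the lines part between the INTs and the Trdd2 bait, where the Trdd2 libraries rise to 11.3% and the TEAp libraries to 3.14% in the last bin.

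All 8 higher bins lay inside the interval, 7 between the INTs and Trdd2 and 1 beside the Trdd2 bait bin on its other side. The bin next to the bait upstream (chr14:54115001-54120000) held 11.3%, 12.2% and 10.6% of the pairs from Trdd2 and 3.33%, 2.99% and 3.10% from TEAp (log2 fold change 1.85 ± 0.10 SE, adjusted p = 4.43e-51). The bin of *Trdd1*, the other Dδ segment (chr14:54110001-54115000), held 4.87%, 5.20% and 3.91% from Trdd2 and 2.16%, 2.49% and 2.45% from TEAp (log2 0.98 ± 0.14, adjusted p = 5.97e-10). A bin farther upstream (chr14:54095001-54100000), with no annotated receptor segment, held 5.22%, 5.85% and 4.98% against 2.87%, 2.72% and 2.13% (log2 1.06 ± 0.14, adjusted p = 7.60e-12). Pairs with both fragments in this bin held 24690 ± 1102 reads per 1000000 pairs from Trdd2 and 8496 ± 1789 from TEAp. They rested on 17, 16 and 14 distinct pairs against 17, 24 and 20. From both baits the bin was higher than the 2 bins that separate it from *Trdd1*, so neither profile fell evenly with distance.

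Between those, the bin at chr14:54105001-54110000 held 2.65% ± 0.311 from Trdd2 and 1.31% ± 0.199 from TEAp (log2 1.01), and the bin at chr14:54100001-54105000 held 2.29% ± 0.263 and 1.38% ± 0.127 (log2 0.74). The 2 remaining ones upstream started at 54080001 (2.33% ± 0.498 and 1.45% ± 0.0797, log2 0.69) and at 54090001 (2.09% ± 0.270 and 1.66% ± 0.113, log2 0.33). The last had an adjusted p of 0.0428 and kept its call in 9 of 15 alternatives, losing it with the replicate block and without any 1 library other than Trdd2 replicate 2 (adjusted p up to 0.213). Downstream of the bait bin, the bin at chr14:54125001-54130000 was the most frequent of all from Trdd2, with 18.4%, 19.3% and 17.9% against 10.6%, 11.1% and 10.9% from TEAp (log2 0.77 ± 0.07, adjusted p = 4.01e-23). All 8 bins were also called higher with each distinct pair counted once and with TMM normalization. The Trdd2 libraries held fewer distinct pairs in total, and a bin holds a limited number of fragments. Near-equal distinct counts then give a higher share from Trdd2, and how much of the call with distinct pairs follows from this was not tested.

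The remaining *Tcrd* elements did not follow. The bin of *Trdj2*, a Jδ segment, held 3.43%, 2.91% and 3.73% from Trdd2 and 3.74%, 3.49% and 3.30% from TEAp, which overlapped (log2 −0.07 ± 0.14, adjusted p = 0.748). *Trdc*, the δ constant gene, spans 2 bins. The first overlapped (1.31% ± 0.232 and 1.58% ± 0.248, adjusted p = 0.148), and the second, which also holds *Trdv5*, a V gene in inverted orientation, was lower from Trdd2 at 2.55%, 2.55% and 3.31% against 3.83%, 4.34% and 3.70% (log2 −0.50 ± 0.14, adjusted p = 0.00268), a call that was lost with TMM (log2 −0.17, adjusted p = 0.546). *Trdv4*, whose bin lies between the INTs and *Trdd1*, held 1.60% ± 0.249 and 1.31% ± 0.0908 (log2 0.28, adjusted p = 0.140). *Trdd2* and *Trdj1* lie in a bait bin and were not compared. Higher contact from the Trdd2 bait was thus limited, among the annotated *Tcrd* segments compared, to the bin of *Trdd1* in this test, while with TMM the *Trdv4* bin was called higher too (log2 0.62, adjusted p = 8.29e-04).

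The INT bins fell into a graded order. The bin at chr14:54055001-54060000 held 4.3%, 4.84% and 3.73% from Trdd2 and 7.40%, 7.51% and 6.90% from TEAp (log2 −0.76 ± 0.12, adjusted p = 2.56e-09). The next, chr14:54060001-54065000, held 12.4%, 13.2% and 12.9% against 15.7%, 17.9% and 17.5% (log2 −0.41 ± 0.07, adjusted p = 9.61e-08). The bin nearest the D segments, chr14:54065001-54070000, with the MboI fragment in which the INT2 primer of the series lies, held 9.19%, 8.65% and 10.2% against 8.79%, 8.39% and 10.2%, which overlapped (log2 0.03 ± 0.09, adjusted p = 0.796). Relative to pairs wholly outside the interval the order was kept and its upper end was called, with log2 values of −0.46 (adjusted p = 0.00227), −0.05 (adjusted p = 0.834) and 0.34 (adjusted p = 0.00968). TMM gave −0.42, −0.07 and 0.37, with adjusted p-values of 0.0141, 0.676 and 0.0109. Within the last bin and its border a fragment of 469 bases (chr14:54064926-54065394) was met in 16.2, 14.3 and 16.9 of 1000 pairs from Trdd2 and in 5.50, 9.77 and 11.6 from TEAp, 1.76 times as often, and it was the only one of 21 frequent INT fragments that lay above TEAp in every library.

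Frequent fragments, those in at least 5 of 1000 pairs on average from either bait, numbered 102 and gave a finer view of the same profile. Between the INTs and Trdd2 all 23 of them lay above TEAp in every library, with ratios of Trdd2 to TEAp from 1.34 to 6.00 and a median of 2.84. Most of these reached the limit of 5 from Trdd2 only, so the count and the median follow in part from the choice. Those that reached it from both baits also had ratios from 1.34 to 6.00. Of 22 between Jδ and Cδ, 13 lay above and 2 below, and of 21 in the INTs, 10 lay below. Of 13 in proximal V and 8 in proximal Jα, 6 and 3 lay below and none above. In the rest of the Jα array 1 of 11 lay below, as did 1 of 2 in *Trac*–Eα and 1 of 2 in the downstream flank. Over all 102 fragments, 37 lay above and 24 below. The fragments were chosen for their level from either bait, which lets in fragments that are high from only 1 of them. They were counted by reads only, so these counts are a description and no support for a difference.

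**Figure D4:**
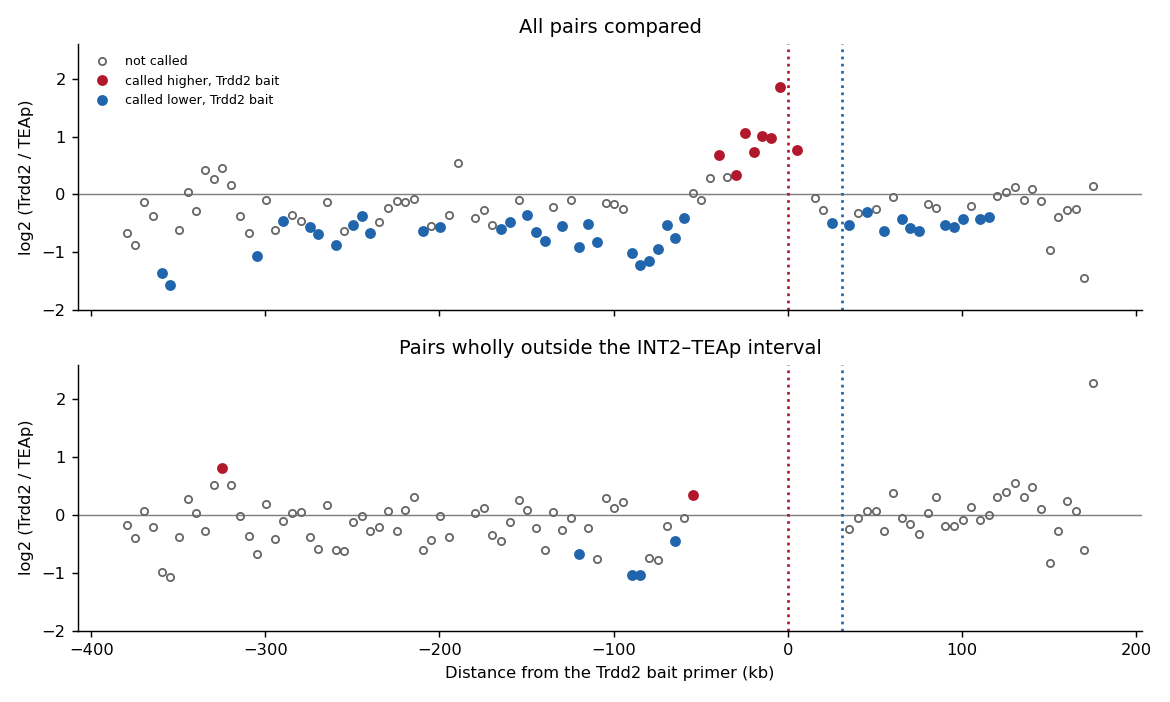
log2 fold change of Trdd2 over TEAp (linear axis) for each 5 kb bin against its distance from the Trdd2 bait primer (kb), for all pairs compared (top) and for pairs wholly outside the interval between INT2 and TEAp (bottom). Filled points passed an adjusted p under 0.05 in edgeR (red higher, blue lower), dotted lines mark the bait primers, and 8 higher and 40 lower bins in the top panel become 2 higher and 4 lower in the bottom one.

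Of the V genes, 7 of 14 *Trav* and 4 of 6 *Trdv* genes lay in bins lower from Trdd2, and none lay in a higher bin. Over all 86 receptor genes 48 lay in lower bins, and of all 108 bins 37.0% were lower. The lower *Trdv* genes include *Trdv5*, which lies inside the interval near TEAp and not upstream of the INTs. *Trav17*, at the border of the proximal V region, held 0.729%, 0.654% and 0.602% from Trdd2 and 0.768%, 0.90% and 0.906% from TEAp, which did not overlap and did not pass the test (log2 −0.37 ± 0.21, adjusted p = 0.140). *Trav21-dv12*, a V gene shared by *Tcra* and *Tcrd*, held 2.66%, 3.64% and 3.41% against 4.06%, 4.11% and 4.39% (log2 −0.37 ± 0.14, adjusted p = 0.0229). *Trdv2-2*, a proximal Vδ gene, held 1.78%, 2.08% and 1.78% against 2.43%, 2.73% and 2.65% (log2 −0.47 ± 0.14, adjusted p = 0.00388). *Trav18*, *Trav19*, *Trav23* and *Trdv1* were called lower as well, with log2 values of −0.45, −0.56, −0.64 and −0.67. Under TMM none of these was called. Their log2 values then ran from −0.34 (*Trdv1*) to −0.03 (*Trav21-dv12*), at or below the median of −0.03 over all bins.

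*Trdv3*, the last Vδ gene before the INTs, kept a lower value under each scaling. Its bin (chr14:54000001-54005000) held 1.85%, 1.32% and 1.49% from Trdd2 and 2.92%, 2.96% and 2.86% from TEAp (log2 −0.91 ± 0.14, adjusted p = 5.34e-09). It stayed lower with TMM (log2 −0.57, adjusted p = 6.63e-04), with distinct pairs (−0.74, adjusted p = 2.77e-09) and among pairs wholly outside the interval (−0.68, adjusted p = 0.00120), and was called in all 16 alternatives that tested it. A frequent fragment just before the gene (chr14:54000791-54000899) was met in 6.52, 6.38 and 4.3 of 1000 pairs from Trdd2 and in 11.7, 11.3 and 10.2 from TEAp. The other bins called lower in all 16 held no receptor gene. They were the INT bin at 54055001, described above, and a pair of bins between *Trdv3* and the INTs, at 54030001 (0.365% ± 0.0995 and 0.734% ± 0.137) and 54035001 (0.485% ± 0.125 and 1.12% ± 0.0609).

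The other bins of largest decrease were called lower in 4 to 13 of the 16 alternatives that tested them. Bins of *Trav15-3* and *Trav14-3*, upstream V genes, held 0.0879% ± 0.0233 and 0.114% ± 0.0218 from Trdd2 against 0.263% ± 0.0225 and 0.292% ± 0.0363 (log2 −1.57 and −1.35). *Trav20* held 0.483% ± 0.157 and 0.882% ± 0.174 (log2 −0.87), and bins without a receptor gene at 53815001, 54010001, 54040001 and 54045001 had log2 values of −1.07, −0.82, −1.15 and −0.94. None of these 7 was called with TMM or outside the interval. A count of 3 reads is 0.00690% to 0.00833% of the pairs in a Trdd2 library and 0.00429% to 0.00631% in a TEAp library, for counting error only.

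Next to the proximal V region on its far side the direction was the opposite. The bin of *Trav13-5*, the V gene before *Trav17*, held 1.09%, 1.19% and 1.21% from Trdd2 and 0.921%, 0.774% and 0.859% from TEAp, which did not overlap and narrowly missed the threshold (log2 0.45, adjusted p = 0.0536). It was called higher with TMM (0.79, adjusted p = 5.44e-04), with distinct pairs (0.46, adjusted p = 0.00446) and outside the interval (0.81, adjusted p = 0.00532). It was named after its values were seen.

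On the Jα side, the bin of *Traj61* to *Traj56*, the first Jα genes behind TEAp, held 2.78%, 4.35% and 3.36% from Trdd2 and 4.99%, 5.36% and 4.77% from TEAp (log2 −0.53 ± 0.14, adjusted p = 7.21e-04). The bin of *Trac*, the α constant gene, held 1.17%, 1.35% and 1.47% against 1.69%, 1.91% and 1.73% (log2 −0.42 ± 0.15, adjusted p = 0.0194). The bin of Eα (chr14:54225001-54230000) overlapped, at 3.66%, 2.52% and 3.16% against 3.21%, 3.75% and 3.72% (log2 −0.19, adjusted p = 0.274). *Dad1*, a gene outside the receptor locus behind Eα, spans 4 bins, of which the first was lower (2.07% ± 0.242 and 2.71% ± 0.361, log2 −0.39, adjusted p = 0.0194) and 3 were not called. None of these was called with TMM, where the log2 values were −0.19, −0.09, 0.14 and −0.05.

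Over all 86 V, D, J and C genes of the locus in the mapped region, 48 lay in bins lower from Trdd2, 1 (*Trdd1*) in a higher bin, 35 in bins not called and 2 in a bait bin. Among the *Traj* genes 36 of 60 lay in lower bins. Genes share bins, and the 36 bins with a receptor gene that were tested had 20 lower (55.6%) and 1 higher, against 20 lower (27.8%) and 7 higher of 72 without. With TMM the genes in higher and lower bins numbered 3 and 1.

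Pairs of bins were tested to see which fragments met at the bait together. Of 3040 bin pairs, 16 (0.526%) were called, 14 higher (0.461%) and 2 lower (0.0658%) from Trdd2. Of the 14 higher, 12 had both bins inside the interval, where 105 were tested. The median log2 fold change was 0.77 for pairs of bins inside the interval, 0.04 for inside with the V side, −0.04 for inside with the Jα side, −1.11 within the V side, −0.54 within the Jα side and −1.46 across the interval, against −0.72 over all bin pairs. The bin pairs were sparse, and the same medians over distinct pairs were 0.86, 0.31, 0.12, −0.56, −0.26 and −0.59, against −0.18 over all. At an unadjusted p under 0.05 the counts were 112 higher and 198 lower.

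The bin next to Trdd2 upstream (54115001) took part in 8 of the 14 higher pairs. With itself it held 42330, 47440 and 36180 reads per 1000000 pairs from Trdd2 and 8544, 6768 and 5072 from TEAp (log2 2.63 ± 0.16, adjusted p = 6.22e-54). With the bin of *Trdd1* it held 8377, 10520 and 6192 against 764.9, 2060 and 1929 (log2 2.4 ± 0.31, adjusted p = 4.82e-12). With the bin at 54095001 it held 2478, 3153 and 3054 against 439.4, 147.1 and 500.1 (log2 2.98 ± 0.52, adjusted p = 5.13e-06). With the bin at 54105001 it held 4189, 1519 and 2693 against 1156, 231.2 and 300.0 (log2 2.31 ± 0.49, adjusted p = 0.00110). In each of these 4 the libraries did not overlap. In those that join different bins, Trdd2 and 2 fragments from the stretch upstream of it were met together more often than TEAp with the same 2 bins. In the first, both fragments lay in a single bin, and whether such close fragments had been left uncut or met as a three-way contact was not tested. Pairs within a single bin made up 30.6% to 34.0% of the pairs compared from Trdd2 and 22.8% to 25.8% from TEAp.

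The count of distinct pairs behind these reads was modest. Bin 54115001 with itself rested on 34, 42 and 33 distinct fragment pairs from Trdd2 and 21, 27 and 31 from TEAp, and with *Trdd1* on 41, 43 and 27 against 13, 29 and 23. Both were called with distinct pairs as well (log2 1.78, adjusted p = 1.03e-09, and 2.08, adjusted p = 6.24e-10). A pair of bins holds a limited number of fragment pairs, so near-equal counts of distinct pairs give a higher share in the Trdd2 libraries, whose totals were lower. The bin at 54080001 with itself, also called higher in reads (464, 472 and 669 against 475, 388 and 489), rested on 7, 4 and 9 distinct pairs against 8, 8 and 6.

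A pair of the bin at 54115001 with the INT2 bin (54065001) was the only higher pair with a V-side bin, with 142, 184 and 114 reads from Trdd2 and 72, 53 and 116 from TEAp, on 15, 17 and 15 distinct pairs against 15, 11 and 26. The pair of largest fold change, 54115001 with a bin of *Abhd4* (54265001) outside the receptor genes, held 1512, 575.4 and 333.2 reads per 1000000 pairs from Trdd2 and 0, 0 and 14.29 from TEAp. It rested on 1, 1 and 3 distinct pairs against 0, 0 and 1 and was not tested with distinct pairs.

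The 2 lower pairs joined V-side bins. *Trdv3* with the INT2 bin held 619.6, 69.05 and 55.53 reads per 1000000 pairs from Trdd2 and 1676, 1997 and 1257 from TEAp (log2 −2.71 ± 0.72, adjusted p = 0.0304), on 5, 1 and 2 distinct pairs against 13, 12 and 20. With distinct pairs its log2 value was −1.15 and it was not called (adjusted p = 0.187). The bins at 54055001 and 54060001 held 3817, 2509 and 4554 against 6119, 11350 and 6587 (log2 −1.14 ± 0.27, adjusted p = 0.00852), and with distinct pairs the log2 value was −0.11 (adjusted p = 0.839).

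With each distinct pair counted once, 40 of 1116 bin pairs were higher and 6 lower, and 22 of the higher ones lay inside the interval. Of the other higher ones, some joined a V-side bin with an inside bin. These included *Trdv2-2* with the bin at 54115001 (log2 3.52 ± 0.76, adjusted p = 0.00171) and *Trdv2-2* with the bin at 54125001 (1.42 ± 0.40, adjusted p = 0.0290). *Trav19* with 54115001 (3.18 ± 0.95, adjusted p = 0.0400) and *Trav21-dv12* with 54125001 (1.11 ± 0.30, adjusted p = 0.0219) were called as well. The *Trac* and Eα bins with 54115001 had log2 values of 2.54 (adjusted p = 0.0148) and 1.63 (adjusted p = 0.0319). These pairs were named after their values were seen, and none was called in the test on reads. The caution above on the lower totals of the Trdd2 libraries applies to them too. In distinct pairs 9 of 188 bin pairs of an inside bin with a V-side bin were higher, and 3 of 110 with a Jα-side bin were higher and 2 lower. Over all bin pairs it was 40 of 1116, and the test on reads called 1 of 591 and 1 of 265 higher.

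Each bait also has its own distance scale, on which the profiles were compared at matched distances. Upstream at 5 to 25 kb, the fragments held 0.507% ± 0.0475 of all fragments per kb from Trdd2 and 0.300% ± 0.00780 from TEAp, 1.69 times as much. At 25 to 50 kb upstream the order turned, with 0.297% ± 0.0169 and 0.475% ± 0.0154, the band in which the Trdd2 bin's neighbours lie as seen from TEAp. At 50 to 100 kb upstream, where the INTs lie for both baits, the values were 0.352% ± 0.00248 and 0.512% ± 0.0115. Downstream at 5 to 25 kb they were 0.552% ± 0.0117 and 0.456% ± 0.0261, and this order turned with distinct pairs. At 25 to 50 kb downstream, the band that holds the proximal Jα genes as seen from Trdd2, they were 0.412% ± 0.0243 and 0.134% ± 0.00907, or 3.07 times as much. All 9 bands were apart in every library (exact permutation test, two-sided p = 0.1, the smallest possible). The bands hold different elements for the 2 baits, so they compare distances and not sites.

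Co-occurrence asked whether a site in the pair goes with another. The measure took pairs with 1 fragment in the first site and the share of them whose other fragment lay in the second. It was the log2 ratio of this share over the second site's share of all fragments in pairs without the first site. Pairs with both fragments in the second site count only in that baseline and lower the ratio. Values above 0 mean that the second site was met more often in the company of the first than in the baseline. Of 33 ratios, 7 did not overlap between the baits, each with an exact p of 0.1, and the lowest adjusted p was 0.471. With *Trac*–Eα as the first site, the INTs had ratios of 0.25, 0.20 and 0.24 from Trdd2 and 0.19, 0.12 and −0.24 from TEAp. The rest of the Jα array had 0.96, 1.19 and 1.26 from Trdd2 and 0.83, 0.47 and 0.67 from TEAp, so it was favored in the company of *Trac*–Eα from both baits, with every Trdd2 library above the TEAp libraries. Upstream V had −1.94, −2.26 and −1.50 from Trdd2 and −1.25, −0.15 and 0.02 from TEAp.

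With the INTs as the first site, proximal Jα had ratios of 0.76, 0.97 and 0.62 from Trdd2 and 0.45, 0.34 and 0.41 from TEAp. *Trac*–Eα had 0.93, 0.54 and 0.69 against 0.49, 0.45 and 0.09. INT to D went the other way, with −0.04, −0.22 and −0.29 from Trdd2 and 0.16, 0.12 and 0.32 from TEAp. Its share beside the INTs was nevertheless higher from Trdd2, at 25.05%, 23.8% and 21.0% against 14.8%, 13.3% and 15.1%. The baselines were 25.7%, 27.7% and 25.6% from Trdd2 and 13.3%, 12.2% and 12.1% from TEAp, so the lower ratio does not mean fewer such contacts. These 3 ratios also did not overlap with each distinct pair counted once, although 2 of them changed sign in some libraries. INT to D then had 0.13, −0.11 and 0.10 from Trdd2 and 0.35, 0.22 and 0.38 from TEAp. *Trac*–Eα had 0.37, 0.25 and 0.32 from Trdd2 and 0.00, 0.09 and −0.30 from TEAp, and proximal Jα had 0.57, 0.52 and 0.43 against 0.26, 0.05 and 0.13. With proximal V as the first site, upstream V had 1.29, 1.55 and 1.67 against 0.96, 1.14 and 1.01, and it overlapped with distinct pairs (0.53, 0.95 and 1.05 against 0.62, 0.68 and 0.53). With *Trdv2-2* as the first site all 9 ratios overlapped between the baits, and INT to D had −2.62, −0.82 and −1.03 from Trdd2 and −0.96, −0.37 and −0.74 from TEAp. With distinct pairs 2 of the 9 did not overlap, Jδ–Cδ (0.33, 0.00 and −0.10 against −0.72, −0.35 and −0.85) and the downstream flank (0.46, −0.23 and 0.15 against −1.59, −1.10 and −1.12). The lowest adjusted p over the 33 ratios was 0.3 with distinct pairs.

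**Figure D5:**
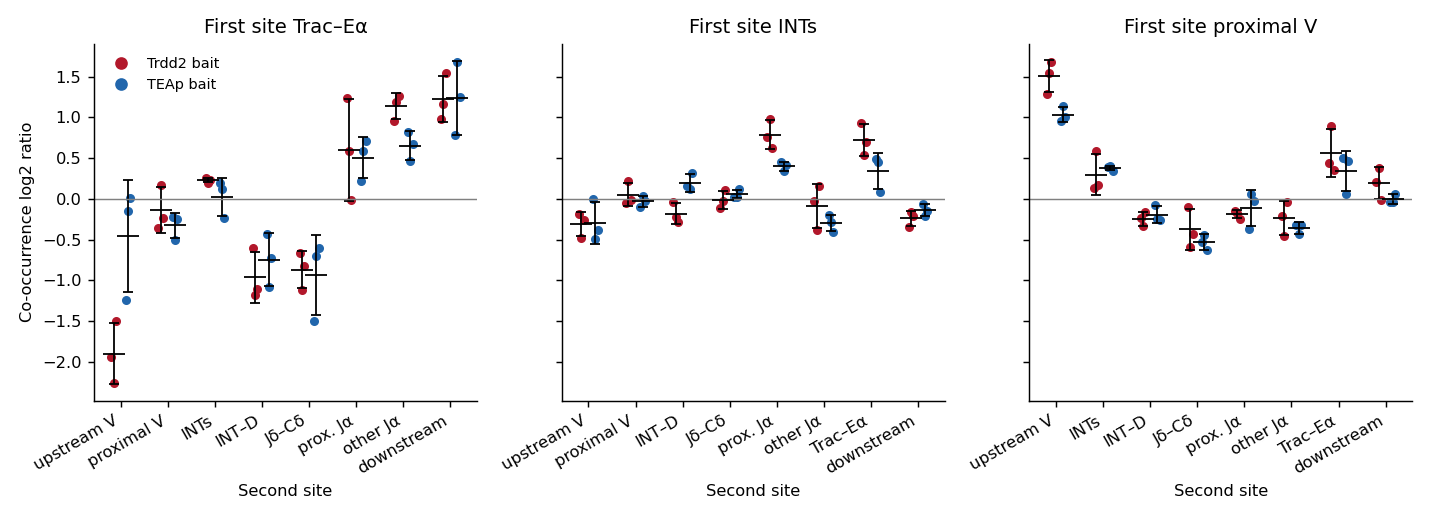
Co-occurrence log2 ratio (linear axis) of each second site given the first site *Trac*–Eα, INTs or proximal V, in the 3 Trdd2 (red) and 3 TEAp (blue) libraries with mean ± SD. With the INTs as the first site, proximal Jα (0.79 against 0.40) and *Trac*–Eα (0.72 against 0.34) lie higher from Trdd2, and INT to D lies lower (−0.18 against 0.20).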

How the data were processed

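The authors trimmed, merged and aligned 3C-HTGTS reads to mm10 (fastp 0.20.0, cutadapt 1.18, Bowtie2 2.4.5, SAMtools 1.9 and bedtools 2.29.2 per the labels) and deposited, for each library, the positions of the 2 fragments that follow the bait in every read (other values). Deposited counts of reads over 5 kb bin pairs are raw. For TEAp they were obtained again from the reads with no difference when a fragment was binned by its end, so the same binning was used for Trdd2. Deposited signal values were not used. All 21543 fragments began at a GATC of the reference used for sequences, the RefSeq mouse assembly of the mm10 build.

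Pairs in chr14:53740001-54300000 without a fragment in either bait bin were compared. Bins and bin pairs with at least 10 reads over the 6 libraries were tested with edgeR 4.0.16 (quasi-likelihood, library size equal to the pairs compared, Benjamini-Hochberg) in R 4.3.3. Shares and ratios (pseudocount 0.5) were compared by exact two-sided permutation tests. Named bins are those of elements the study names, and up to 10 bins and 5 bin pairs called in each direction with the largest fold change among those that do not overlap. INT and Eα windows were placed from the drawings of the study and are inferred. Scripts were tested on simulated data. Regions, lists and tests were chosen with earlier results of these data known. Tables and plots were made in Python 3.11.15 with pandas 2.3.3, scipy 1.17.1, matplotlib 3.10.9 and numpy 2.4.6. Alternatives were TMM, DESeq2 1.42.0, no filter, 10 kb bins, a pseudocount of 1, log2 counts, distinct pairs, pairs farther from the baits or in different bins, single libraries left out and a replicate block. Distinct aligned intervals, midpoint binning and pairs outside the interval were added afterwards.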

Additional observations from a re-analysis of the deposited data

How the results depend on the processing

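The 7 bins higher from Trdd2 between 54095001 and 54125001 or at 54080001, and the order of the classes with both fragments inside and on each side of the interval, kept their direction under each alternative that gave a value, and the bins their call. The counts of bins moved. Higher and lower bins were 14 and 4 with TMM, 14 and 6 with DESeq2, 5 and 26 with 10 kb bins, and 2 and 4 outside the interval. Lower bins were 10 without fragments within 10 kb of a bait bin and 18 without pairs in a single bin. Leaving out 1 library gave 7 to 11 higher bins and 24 to 41 lower, with 24 without TEAp replicate 1 and 25 without TEAp replicate 3. Higher bin pairs were 40 with distinct fragment pairs, 32 with distinct aligned intervals, 4 without fragments within 10 kb of a bait bin and 1 outside the interval, and 7 to 20 with 1 library left out (9 without TEAp replicate 2, 7 without TEAp replicate 3). Lower bin pairs were 10 with DESeq2, 6 and 5 with the distinct counts, 1 without the filter, 1 without pairs in a single bin, 0 without fragments within 10 kb of a bait bin and 0 outside the interval (101 and 93 at an unadjusted p under 0.05 in edgeR, not run in DESeq2), and 0 to 7 with 1 library left out (5 without Trdd2 replicate 1, 7 without Trdd2 replicate 3, 1 without TEAp replicate 1 or 3, and 0 without TEAp replicate 2, where 98 had an unadjusted p under 0.05). Mean correlations within Trdd2, within TEAp and between the baits were 0.497, 0.570 and 0.486 on log2 values, 0.842, 0.895 and 0.785 without pairs in a single bin, and 0.896, 0.911 and 0.809 with distinct pairs. The cause of these shifts was not tested.

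Some differences in percentage points (Trdd2 minus TEAp) turned. Outside the interval they were 0.775 for upstream V, 0.345 for *Trac*–Eα, 0.916 for the downstream flank, 0.351 for pairs on the V side, 3.08 for pairs on the Jα side, 0.0762 for INTs with *Trac*–Eα, 0.145 for proximal with other Jα, 1.183 for other Jα with itself and 0.330 for other Jα with *Trac*–Eα. Without fragments within 10 kb of a bait bin they were 0.00441 for upstream V, 0.792 for pairs on the Jα side, −0.0368 for upstream V with Jδ–Cδ, −0.126 for INT to D with Jδ–Cδ, 0.101 for other Jα with *Trac*–Eα, 9.38 for the band 25 to 50 kb upstream and −4.00 for 5 to 25 kb downstream. Without pairs in a single bin they were 0.359 for upstream V and −2.50 for 5 to 25 kb downstream, and with distinct pairs the latter was −1.26. Replicate numbers were not taken to pair the libraries. Deviations from the bait mean of same-numbered libraries correlated at −0.021, −0.364 and −0.571 over bins and at 0.020, 0.027 and 0.026 over bin pairs. For libraries of other numbers the values were −0.613 to 0.702 over bins and −0.022 to −0.004 over bin pairs. Deviations within a bait depend on each other, so these values cannot settle whether the libraries were paired. With the replicate block 7 bins were higher and 40 lower, 45 of them among the 48 called, and 10 bin pairs were higher and 1 lower.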

Other observations

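Reads with a fragment in the 5 kb bin of the other bait were left out of the comparison, and give one further fragment from either direction. Most of these bin fragments were not the other bait's own MboI fragment. From the Trdd2 bait, 757, 809 and 636 reads (106, 132 and 101 distinct pairs) had 1 fragment in the TEAp bait bin and the other in a compared region, and from the TEAp bait 3686, 3290 and 4853 reads had 1 in the Trdd2 bait bin. The further fragment lay in the INTs in 28.8%, 30.4% and 30.2% of these reads from Trdd2 and in 26.3%, 23.1% and 21.3% from TEAp. It lay in proximal V, the V genes nearest the INTs, in 24.6%, 27.7% and 20.1% from Trdd2 and in 15.7%, 17.3% and 16.8% from TEAp. It lay between Jδ and Cδ in 9.91%, 17.7% and 14.5% from Trdd2 and in 26.1%, 27.7% and 23.5% from TEAp. It lay in *Trac*–Eα in 1.19%, 0.742% and 0.943% from Trdd2 and in 2.17%, 2.34% and 3.32% from TEAp, on 2 or 3 distinct pairs in each Trdd2 library. The bait bins span 5 kb around different sequence and the number of distinct pairs was low, so these values were not tested.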
